A study of Homo sapiens with 47 samples.

Results

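The cytosolic ribosomal protein genes were followed across all HAP1 and HCT116 lines of a study of *NUP58* mutants. The members were chosen by a rule on names, with earlier results of these data known. The rule took symbols made of RPL or RPS with digits and an optional A or X, plus RPLP0, RPLP1, RPLP2 and RPSA. A mean FPKM (read fragments per unit of transcript length, relative to the fragments mapped in that library) of at least 1 was also required. This gave 77 genes of 57507 rows, 31 of the small and 46 of the large ribosomal subunit, and all 77 passed the filter on low values. No symbol occurred in more than 1 row. FAU, which encodes a ribosomal protein fused to a ubiquitin-like protein, falls outside the name rule.

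Cytosolic ribosomes are built from a small subunit, which reads the mRNA, and a large subunit, which joins amino acids. Their proteins are made in the cytoplasm, are carried through nuclear pores to the nucleolus, and leave the nucleus again as assembled subunits. Most mRNAs of these proteins begin with a cytosine and a run of further pyrimidines, the 5′ terminal oligopyrimidine tract, through which growth signals set their translation. NUP58 is a protein of the central channel of the nuclear pore.

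The first transcribed bases are shown for members on which the results below turn, and for the paralog RPL22L1, because this shared start is the best known feature of the family. Sequences are from RefSeq (build GRCh38.p14), which gave a start for 62 of the 77 members. Each run holds 20 bases before the listed start and 10 bases from it, read 5′ to 3′ on the gene's strand, and capitals mark the cytosine at the start with the pyrimidines that follow it within these 10 bases.
RPL22 (chr1:6199586-6199615, minus strand): ctgcgtagttcgctcacctcCCTTTCTaac
RPL22L1 (chr3:170870186-170870215, minus strand): gaccgcgcggccgtagcttcCTCTCTgctc
RPL12 (chr9:127451397-127451426, minus strand): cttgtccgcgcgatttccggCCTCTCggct
RPL14 (chr3:40457319-40457348, plus strand): gggttgggcgggtcttcttcCTTCTCgcct
RPS15 (chr19:1438376-1438405, plus strand): ataactgcgcaggcgcggacCaaagcgatc
RPL21 (chr13:27251538-27251567, plus strand): cgccgcggccccgcctctttCCTTTCggcc
RPL39 (chrX:119791621-119791650, minus strand): gctcgttcttccgccagcttCCCTCCTCTT
RPL36A (chrX:101390991-101391020, plus strand): ttccgtttgcctcgcggtttCTTTCTTTCC
RPL10 (chrX:154398357-154398386, plus strand): atgcgcaggcggaggagcgcCTCTTTCCCT
RPS18 (chr6:33272055-33272084, plus strand): gatatcgcgtcacttccgctCTCTCTTCCa
RPS10 (chr6:34426060-34426089, minus strand): cagcaccgcgcatgctccttCCTTTCCagc
RPL10A (chr6:35468381-35468410, plus strand): gcgcatgcgcaagacatgctagtctctttt
RPL4 (chr15:66504846-66504875, minus strand): acatatacagcgggagtggtaagcacttcc
RPS4X (chrX:72277239-72277268, minus strand): cgcgcgcagtctccagccccaatttctacg

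RPL10 had 3 listed starts, and the start with the longest tract is shown. A cytosine followed by at least 4 pyrimidines stood exactly at 46 of the 77 listed starts of members (59.7%), against 4.07% of all 35116 listed starts, and RPS15, RPL10A, RPL4 and RPS4X had no such run at their listed start. In the window from 250 bases before to 50 bases after a start, CCGGAAG, searched on both strands, occurred at 33.8% of the members' starts and at 10.3% of all starts. TATAAA occurred at 6.49% and 11.5%. These matches describe letters only.

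HAP1 is a near-haploid human line derived from chronic myeloid leukemia, and HCT116 is a human colorectal carcinoma line. HAP1 gave 4 libraries of the unmodified line (WT), 4 of cells that had received Cas9 with no guide RNA (EV), and 4 of each of 6 *NUP58*-mutated lines (C1 to C6). In HCT116 there were 4 libraries of a single *NUP58*-mutated line and 11 unedited libraries (2 WT, 3 EV1, 4 EV2, and 2 whose title and genotype named different controls). Each mutated line was 1 clone grown from 1 cell, so that its 4 libraries describe that clone and not *NUP58* mutation at large. The libraries are called experimental replicates, and p-values measure the spread between them. No other treatment was named.

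*NUP58* had an FPKM of 41.3 ± 8.07 in WT (SD, n = 4) and of 9.80 to 25.5 as a mean in the 6 HAP1 clones. In HCT116, 3 of the 4 clone libraries lay between 23.3 and 25.3. The library labelled clone number 3 lay at 44.7, whereas the library labelled EV2 number 3 lay at 23.9, so these labels go against the *NUP58* level and HCT116 results are given with and without the libraries numbered 3. Of 6 blood-cell markers, the highest value in any HAP1 library was an FPKM of 0.797 for *CD33*, and *PTPRC*, *SPI1* and *GATA1* were 0 in every HAP1 library. Of 9 epithelial and colorectal markers, 6 had a median FPKM of at least 1 in HCT116, from 6.11 for *CDX2* to 718 for *KRT8*, whereas *VIL1*, *CDX1* and *LGALS4* were at medians of 0.0178, 0 and 0. In HAP1, *KRT18*, *CDX2* and *KRT8* had medians of 24.9, 3.87 and 3.73, and the other markers were below 1. The *CDX2* ranges of the 2 lines overlapped. Between 18020 and 19456 genes were above 0 in a library. FPKM does not give the number of fragments behind a value, so the depth is unknown.

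The family was expressed at a high level. Mean FPKM over the 47 libraries ran from 335 for RPL22 to 4264 for RPL4, a 12.7-fold range, with a median of 1594. Of the 77 genes, 67 exceeded 1000, and 68 of the 100 rows with the highest mean FPKM were members. RPL4, RPL39, RPS2, RPL10 and RPS18 were highest. RPL22, RPS28, RPS26, RPL36 and RPL23A were lowest. The order of the genes was similar in WT HAP1 and unedited HCT116, with a Spearman correlation of 0.895 across the 77 genes, which share the libraries and are not independent. The spread among libraries of the same line, as the SD of log2(FPKM + 1), ran from 0.0989 for RPL14 to 0.333 for RPL13, with a median of 0.179. The family has 1589 named pseudogenes in GENCODE, and reads can be shared with such copies. The rows of the pseudogenes held 0.134% to 0.203% of all FPKM in HAP1. Over the 47 libraries they reached 17.7% of the gene's own FPKM for RPL9, 9.10% for RPS2 and 7.41% for RPL23A.

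**Figure D1:**
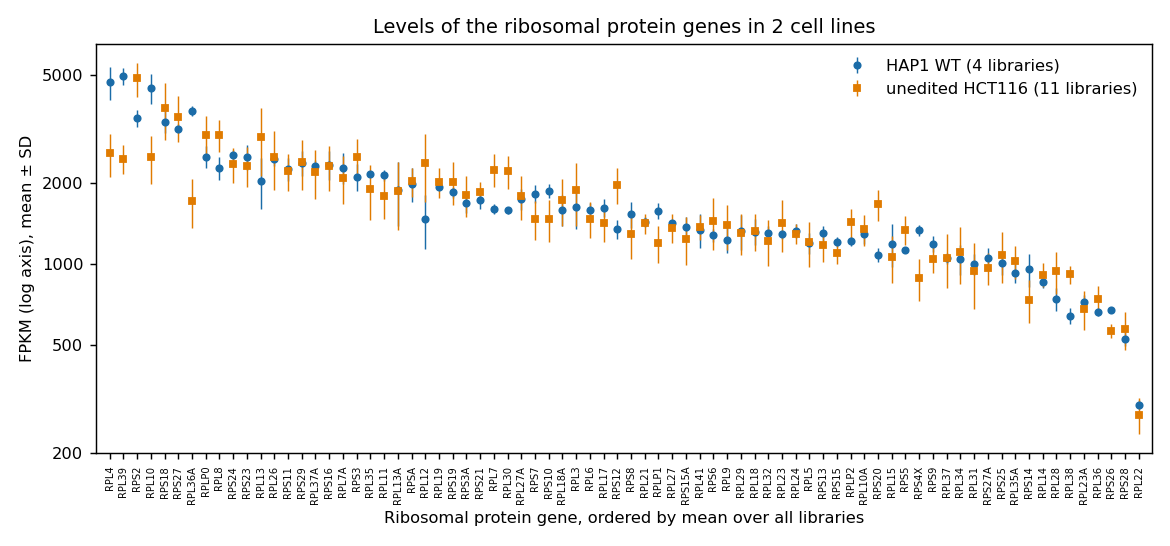
FPKM of the ribosomal protein genes reported by name, on a log axis, as mean ± SD over 4 HAP1 WT libraries (blue) and 11 unedited HCT116 libraries (orange), ordered by the mean over all libraries. Of the 77 genes, 67 have a mean over 1000, RPL22 is lowest, and RPL4, RPL39, RPL10 and RPL36A stand higher in HAP1.

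The summed FPKM of the 77 genes was taken as a share of all FPKM in a library. It was 21.2% ± 1.23 in WT (SD, n = 4), 21.4% ± 0.848 in EV, and from 22.1% (C6) to 24.02% (C2) as means of the clones. Single clone libraries ran from 20.9% to 27.0% and overlapped with the WT range of 19.5% to 22.4%. Set against the WT library of the same number, the share was higher in all 4 libraries of C1, C2, C4 and C5 and in 3 of 4 of C3 and C6. In EV it was higher in 2 of 4. Mitochondrially encoded transcripts took 7.41% ± 1.54 of FPKM in WT (SD, n = 4), 6.32% ± 0.955 in EV and 4.52% (C4) to 6.56% (C6) as means of the clones. In bulk RNA, more cells with a high share and more such mRNA in each cell cannot be told apart. HAP1 libraries numbered 2 had the highest mean share, 24.4% ± 2.02 (SD, n = 8), against 22.1% to 22.5% for the other numbers. In unedited HCT116 the share was 19.4% ± 2.67 (SD, n = 11). It differed with the number in the title: all HCT116 libraries numbered 1 had a mean of 22.2%, those numbered 2 of 19.9%, those numbered 3 of 18.5% and those numbered 4 of 16.5%. Mitochondrially encoded transcripts took 13.6%, 8.59%, 11.1% and 16.7% of FPKM in the same 4 sets, and their part in the share was not tested in either line. The ratio of small- to large-subunit FPKM was 0.707 ± 0.0184 in WT. In C5 it was 0.742 to 0.771, above all WT libraries, and in C6 it was 0.658 to 0.682, below all WT libraries. The median log2 differences of small- and large-subunit members were 0.21 and 0.21 in C5 and 0.06 and 0.10 in C6. Without RPL39, RPL36A and RPL10, abundant genes called lower in C5, the ratio was 0.820 to 0.852 in C5 and 0.816 to 0.874 in WT. Without RPS18, RPS10, RPL10A and RPL21, called lower in C6, it was 0.635 to 0.661 in C6 and 0.643 to 0.684 in WT, and the ranges overlapped in both. The genes left out were chosen as lower in these same libraries, so the overlap does not show that the other members kept their balance.

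**Figure D2:**
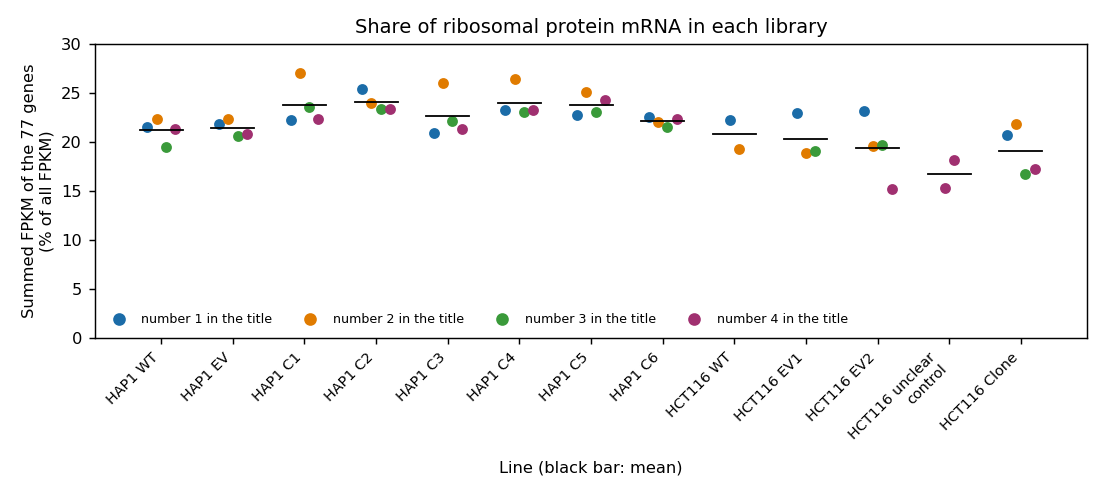
Summed FPKM of the 77 genes as a percent of all FPKM in each library, with a point for each library coloured by the number in its title and a bar for the mean of the line. HAP1 libraries lie between 19.5% and 27.0%. HCT116 libraries lie between 15.2% and 23.1%, with those numbered 4 lowest among the unedited ones.

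C1 to C4 were each compared with WT to ask how ribosomal protein mRNA differed in clones with mutated *NUP58*. No member passed the test in any of them (limma on log2(FPKM + 1), adjusted p under 0.05), while 0.479%, 0.732%, 0.0911% and 0.16% of all genes did in C1, C2, C3 and C4. At an unadjusted p under 0.05 there were 6, 20, 1 and 8 members, beside 11.7%, 12.7%, 4.8% and 6.63% of all genes. The log2 difference was above 0 for 75, 73, 64 and 77 of the 77 genes, and the medians were 0.13, 0.16, 0.06 and 0.15, against medians of all tested genes of -0.03, -0.03, -0.01 and -0.04. The 77 genes share each library, so these counts are not independent observations. When same-numbered libraries of C4 and WT were compared as pairs (a replicate block), RPL22 and RPL12 passed in C4 (adjusted p = 0.0354 and 0.0344), beside 2.43% of all genes.

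The EV line had 0 members that passed, against 0.038% of all genes. At an unadjusted p under 0.05 it had 1 member, beside 2.08% of all genes. Its log2 differences were between -0.05 and 0.14, with a median of 0.01.

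The mean of the 6 clones against WT was taken from a single fit of the 32 HAP1 libraries. In it, 7 members were higher and none lower, where 6.6% of all genes were called and 3.17% were called higher. With same-numbered libraries as a replicate block, 18 members were called, all 7 among them, beside 12.6% of all genes. In C1 to C4 the deviations of all 4 same-numbered pairs with WT correlated above 0.1. In C5 and in C6, which this fit also holds, 2 of the 4 pairs did. The 7 were RPL12, RPL22, RPL5, RPS15, RPS3A, RPL37 and RPL14. RPL12 belongs to the stalk base of the large subunit, where translation factors bind. Its FPKM was 1463 ± 329 in WT and had a median of 1903 in the 24 clone libraries (1510 to 2680), with a log2 difference of 0.42 ± 0.12 (SE, adjusted p = 0.0352). The ranges overlapped, since WT reached 1880. RPL5, which binds 5S rRNA and can hold back the p53 ligase MDM2, had 1196 ± 104 in WT and a median of 1427 in clones (log2 difference 0.28 ± 0.08, adjusted p = 0.022). RPS15, which takes part in export of the small subunit, had 1208 ± 49.1 and a median of 1477 (0.26 ± 0.07, adjusted p = 0.0236). Without WT number 1, 2, 3 or 4, the count was 3, 4, 1 or 2, and only RPL22 was called without number 3. These 4 counts are given without the share of all genes called, so a loss particular to members is not shown. The call of RPS3A was lost without any of the 4 WT libraries, 2 EV libraries or 13 of the clone libraries, each left out in turn. The calls of RPL12, RPL5, RPS15, RPL37 and RPL14 were lost, among the fits that left out 1 library, only without a WT library.

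Other members of known role did not pass in the fit without the block. RPL11, the partner of RPL5 on 5S rRNA, differed by 0.17 ± 0.07 (SE) on the log2 scale. RPS6, the target of S6 kinase, differed by 0.17 ± 0.07, RPSA by 0.16 ± 0.09, and the stalk proteins RPLP0, RPLP1 and RPLP2 by 0.13, 0.09 and 0.08. RPL13A and RPL13, with 0.34 ± 0.14 and 0.34 ± 0.15, had larger differences than most called members, and RPL13 was the member with the widest spread within lines. With the block, RPL13, RPL13A and RPS6 passed (adjusted p = 0.0181, 0.0201 and 0.0445), and RPL11, RPSA and the 3 stalk proteins did not.

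**Figure D3:**
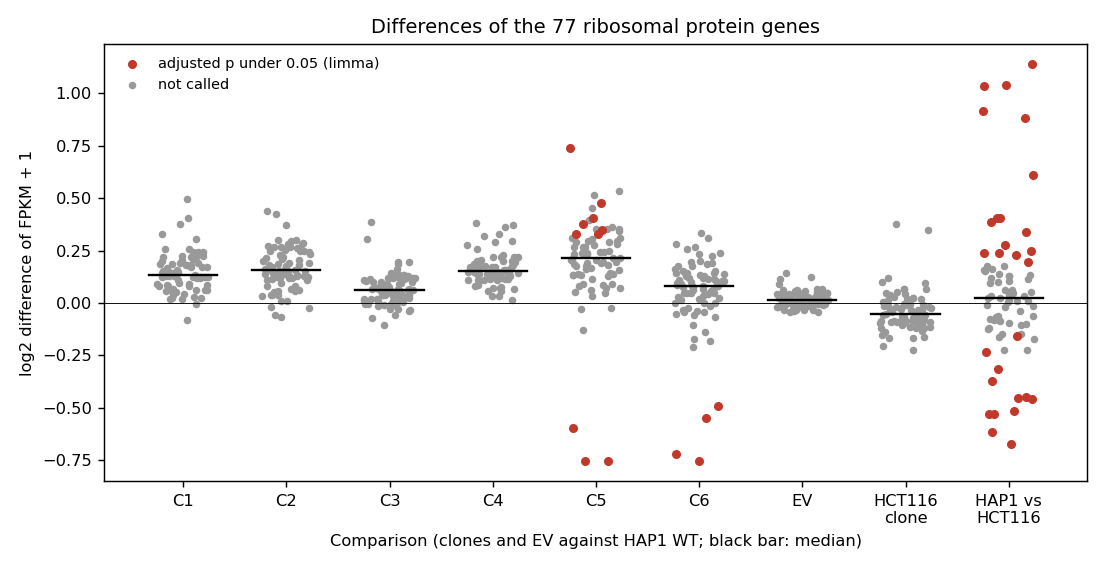
Log2 difference of FPKM + 1 for each of the 77 genes in 9 comparisons, with C1 to C6 and EV set against WT, red where limma's adjusted p was under 0.05 and a bar for the median. C1 to C4 and EV have no red points. C5 has 7 above and 3 below 0, C6 has 4 below 0, and the 2 cell lines differ most.

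RPL22 was the member with the smallest adjusted p in the mean of the clones. It encodes an RNA-binding protein of the large subunit, and its paralog RPL22L1 can take its place there. RPL22 FPKM was 310.0, 308, 285 and 305 in the 4 WT libraries and 320, 317, 293 and 307 in EV. It was 368, 425, 391 and 420 in C1, 369, 357, 377 and 387 in C2, and 358, 393, 367 and 376 in C3. C4 had 370, 425, 352 and 412, C5 had 394, 396, 401 and 410, and C6 had 341, 330, 371 and 369. All 24 clone libraries lay above all 8 WT and EV libraries. The mean of the clones differed from WT by 0.33 ± 0.05 on the log2 scale (SE, adjusted p = 7.14e-05). It was called under all 11 alternative settings and without any single library, with adjusted p between 1.03e-05 and 0.0128. Clone by clone, C5 passed (0.40 ± 0.07, adjusted p = 0.01). In C1, C2, C3, C4 and C6 the differences were 0.41, 0.30, 0.30, 0.36 and 0.22 and did not pass. These comparisons share the WT libraries.

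RPL22L1, which the name rule leaves out, was lower in the same clones. Its FPKM was 173, 134, 142 and 139 in WT and 140.4 to 190.1 in EV. In the clones, 23 of 24 libraries lay below every WT library, and C3 number 1, at 157, did not. C6 was lowest with 53.9, 47.3, 42.7 and 33.01. The mean of the clones differed from WT by -0.94 ± 0.14 (SE, adjusted p = 3.49e-05). RPL22L1 was called lower in C1 (-0.83, adjusted p = 0.0271), C5 (-1.20, adjusted p = 0.00187) and C6 (-1.73, adjusted p = 1.21e-04). In C2, C3 and C4 the differences were -0.68, -0.47 and -0.71 and did not pass (adjusted p = 0.0537, 0.965 and 0.11). In C1, leaving out single libraries took the adjusted p to between 0.0385 and 0.102. The ratio of RPL22 to RPL22L1 FPKM averaged 2.07 ± 0.221 for WT (SD, n = 4), and EV had 2.00 ± 0.229. It was 3.66 ± 0.970 in C3, 4.98 ± 1.03 in C1, 6.47 ± 1.46 in C5 and 8.29 ± 2.16 in C6.

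**Figure D4:**
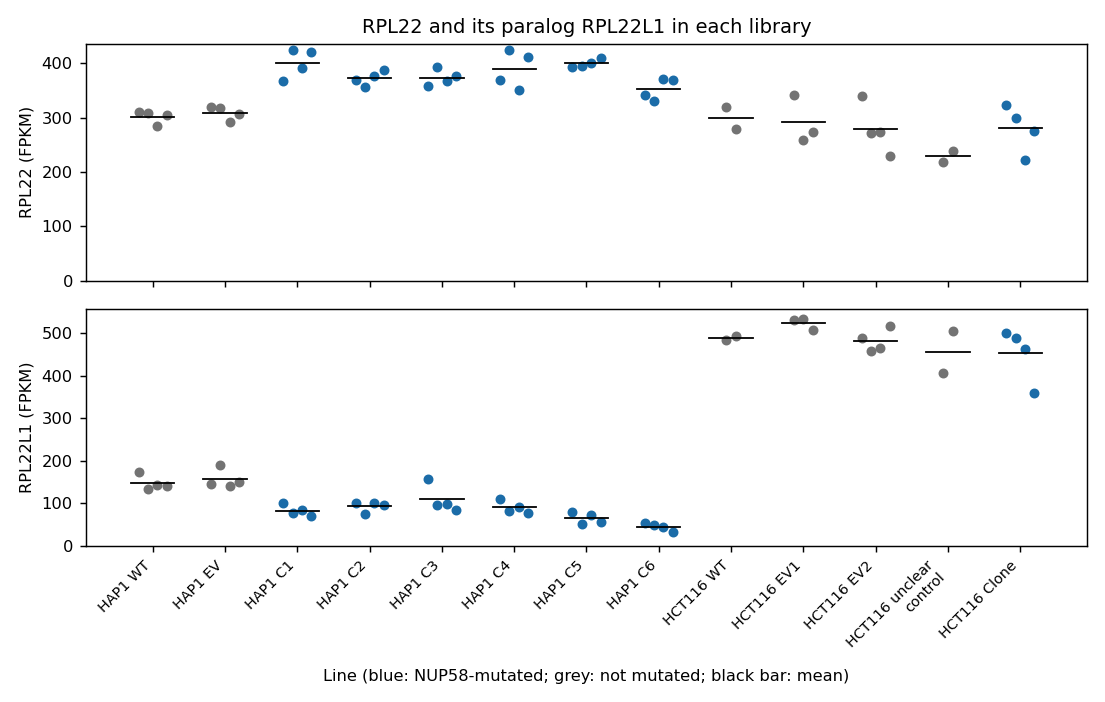
FPKM of RPL22 (top) and RPL22L1 (bottom) in each library, from 0, with *NUP58*-mutated lines in blue, all other lines in grey and a bar for the mean of each line. RPL22 of the 6 HAP1 clones lies at 330 to 425, above WT and EV at 285 to 320, and RPL22L1 lies below WT in all but 1 clone library. HCT116 libraries have RPL22L1 at 359.8 to 533, and those of its clone overlap with the unedited ones.

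C5 differed from WT in 10 members, 7 higher and 3 lower. Of all genes 7.55% were called, 3.28% higher and 4.27% lower. At an unadjusted p under 0.05 there were 48 members, beside 23.4% of all genes. The 3 lower genes lie on the long arm of chromosome X. RPL39, a small protein of the exit tunnel, had 4710, 4956, 4689 and 5482 FPKM in WT and 2697, 3292, 2764 and 3007 in C5, a log2 difference of -0.76 ± 0.09 (SE, adjusted p = 0.00133). RPL36A had 3747, 3778, 3451 and 3731 in WT and 2170, 2418, 2104 and 2042 in C5 (-0.75 ± 0.08, adjusted p = 7.94e-04). RPL10, which completes the large subunit in the cytoplasm, had 4996, 4685, 3693 and 4509 in WT and 2779, 3240, 2742 and 3033 in C5 (-0.59 ± 0.11, adjusted p = 0.01). The groups did not overlap for any of the 3, as for 40 of the 77 members, and overlap was not counted over all genes. The non-member genes tested within 5 Mb of each had median log2 differences of -0.79 (33 genes), -0.85 (34 genes) and -0.85 (62 genes). RPS4X, on the same chromosome arm, differed by 0.05 ± 0.08, and its 42 neighbours had a median of 0.14.

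RPL21 was the member with the largest rise in C5. It lies on chromosome 13 from 27251362 to 27256691, 1.89 Mb beyond the end of *NUP58*. Its FPKM was 1465, 1483, 1343 and 1443 in WT, 1366 to 1580 in EV, and 2461, 2495, 2623 and 2034 in C5, with no overlap (0.74 ± 0.10, SE, adjusted p = 0.00167). Its 34 neighbours had a median of 0.41, with 5 called higher and 7 lower, while all tested chromosome 13 genes outside the family had a median of -0.58. The other 6 called higher were RPL37 (0.48), RPL22 (0.40), RPL5 (0.38), RPL27A (0.35), RPL14 (0.33) and RPS21 (0.33), on 5 other chromosomes, and their neighbours had medians between -0.005 and 0.13. RPL5, RPL27A, RPL14 and RPS21 lost the call in 7, 7, 7 and 8 of the 8 fits that left out a single library. In the fits without WT or C5 number 1, 3 or 4, 6 members were called, given without the share of all genes called. The log2 difference was above 0 for 71 of the 77 members, with a median of 0.21, against 50.9% and 0.01 over all tested genes.

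C6 differed in 4 members, all lower. Of all genes 11.7% were called, 5.39% lower. An unadjusted p under 0.05 was found for 13 members, beside 26.4% of all genes. Of the 4, 3 lie in 1 region of the short arm of chromosome 6. RPS18, in the head of the small subunit, had 3518, 3696, 2979 and 3265 FPKM in WT and 2064, 1986, 1810 and 2095 in C6 (-0.76 ± 0.10, SE, adjusted p = 0.00111). RPS10 had 1881, 1920, 1705 and 1963 in WT and 1206, 1066, 1098 and 1155 in C6 (-0.72 ± 0.08, adjusted p = 7.07e-04). RPL10A, of the L1 stalk, had 1408, 1334, 1156 and 1275 in WT and 949, 953, 851 and 921 in C6 (-0.49 ± 0.09, adjusted p = 0.0073). Neighbours within 5 Mb, whose windows overlap, had medians of -0.77 (152 genes), -0.77 (151 genes) and -0.76 (140 genes), with 98, 96 and 91 of them called lower and none higher. RPS12, on the long arm of chromosome 6, differed by 0.08 ± 0.10. RPL21 was lower in C6, at 926, 1025, 979 and 984 FPKM (-0.55 ± 0.08, adjusted p = 0.00199), and its 33 neighbours had a median of -0.51. It was thus higher in C5 and lower in C6. The other 73 members had log2 differences between -0.21 and 0.34, of which 58 were above 0. Over all 77 members the median was 0.08, against 0.02 over all tested genes, of which 52.8% were above 0.

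**Figure D5:**
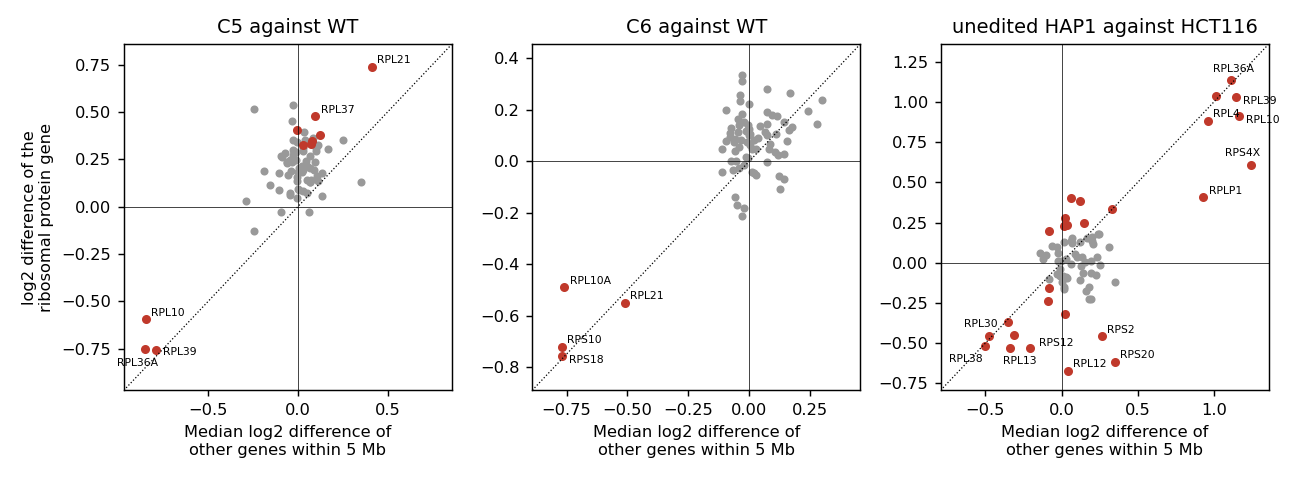
Log2 difference of each of the 77 genes (vertical) against the median log2 difference of other tested genes within 5 Mb (horizontal) for C5 against WT, C6 against WT, and unedited HAP1 against unedited HCT116, red where called, with a dotted line of equality. The 3 X-linked genes in C5, the 3 chromosome 6 genes in C6, RPL21 in both, and the X and chromosome 15 genes between the lines lie away from 0 on both axes.

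Across the 77 genes, the Pearson correlation of a member's log2 difference with the median of its neighbours was 0.77 in C5, 0.77 in C6 and 0.77 between the cell lines, against 0.15, 0.07, 0.09 and -0.01 in C1 to C4. The Spearman correlations in C5, C6 and between the lines were lower, at 0.28, 0.28 and 0.43. These describe points that share libraries and overlapping windows. How far the position of a gene sets its level was not tested, and no DNA copy number was analysed here.

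Other genes of the ribosome were counted from lists chosen with earlier results known, and their counts stand beside the 7.55%, 11.7% and 6.6% of all genes called in C5, C6 and the mean of the clones. Neighbours within 5 Mb were taken for members only, so differences shared by a region were not looked for around these genes. The calls below therefore cannot be told apart from regional differences such as those given above for C5 and C6. In C5, of 22 translation factors that have 5′ oligopyrimidine mRNAs, EEF1G was higher (0.49) and 3 were lower, namely TPT1 (-0.76), EIF2S3 (-0.73) and EIF3D (-0.43). The median of the 22 was 0.07. TPT1, which encodes translationally controlled tumor protein, was also lower in C6 (-0.71) and in the mean of the clones (-0.28), and EEF1G was higher in the mean (0.34). Of 59 ribosome biogenesis factors, DKC1 (-0.66), the pseudouridine synthase of rRNA, was lower in C5. RIOK1 (-0.85), a kinase of small-subunit maturation, and EIF6 (-0.79), which keeps the large subunit apart from the small one, were lower in C6. Of 11 snoRNA host genes, SNHG12 (-0.81), SNHG7 (-0.64), SNHG1 (-0.54) and SNHG6 (-0.48) were lower in C6, where the median of the list was -0.40. Of 15 chaperones and importers of ribosomal proteins, TNPO1, a nuclear import receptor, was higher in C6 (0.63) and in the mean of the clones (0.51), and IPO5 was lower in C5 (-0.41) and C6 (-0.35). Of 78 mitochondrial ribosomal protein genes, 2 were higher and 2 lower in C5 and 5 higher and 3 lower in C6, and their medians were -0.01 and -0.003. MRPS31 was lower (-1.08 and -0.71) and MRPL24 higher (0.68 and 0.67) in these 2 clones. In the mean of the clones MRPS31 (-0.39) and MRPL58 (-0.29) were lower and MRPL24 (0.41) was higher. Of 9 tested genes next to the name rule, RPL7L1 was higher in C6 (0.56) besides the fall of RPL22L1. None of 9 genes for export of ribosomal subunits was called in any clone or in the mean of the clones.

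The HCT116 clone was compared with all 11 unedited libraries to ask about a second cell line. No gene of 12960 was called (0%), and 1 member, RPL35, had an unadjusted p under 0.05, as had 10.4% of all genes. Log2 differences of members were between -0.22 and 0.37. Above 0 were 20 of them, with a median of -0.05, against 50.9% and 0.004 over all tested genes. RPL22 differed by 0.02 ± 0.13 (SE). Without the libraries numbered 3, 5.92% of all genes were called, and RPL35 was the only member among them (0.60, adjusted p = 0.0159). RPL35, a protein at the exit of the tunnel, was named after its values were seen. Its FPKM in the libraries labelled clone was 2933, 2920, 1767 and 2240 for numbers 1 to 4, and the other unedited libraries were at 1499 to 1989, save the library labelled EV2 number 3 at 3146. The high and low libraries numbered 3 are those whose *NUP58* level goes against their labels.

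Unedited HAP1 and HCT116 differed in 28 members, 16 higher and 12 lower in HAP1. Of all genes 68% were called, 39.5% higher and 28.5% lower, and of the members 36.4% were called. With median-ratio scaling the split was 10 higher and 19 lower, given without the share of all genes called. That scaling moved the median of all tested genes from 0.10 to 0.004. Large differences lay on chromosomes X and 15. RPL36A had a median of 3739 FPKM in HAP1 (3451 to 4051) and 1603 in HCT116 (1152 to 2308), a log2 difference of 1.14 ± 0.11 (SE, adjusted p = 3.88e-09). RPL39 differed by 1.03 ± 0.08, RPL10 by 0.91 ± 0.11, RPL4 by 0.88 ± 0.10 and RPS4X by 0.61 ± 0.09, and in all of these the lines did not overlap. Of the 77 members, 10 did not overlap, and overlap was not counted over all genes. All 4 members on chromosome X were called higher, as were RPL4 and RPLP1 (0.41 ± 0.09) on chromosome 15. The neighbours of these genes had medians from 0.93 to 1.24.

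Members lower in HAP1 were RPL12 (-0.67 ± 0.15), RPS20 (-0.62 ± 0.08), RPS12 (-0.53 ± 0.09) and RPL13 (-0.53 ± 0.14), followed by RPL38, RPS2, RPL30, RPL7, RPL8, RPL28, RPLP2 and RPL36. All 4 members on chromosome 8 were lower. Neighbours of RPL30, RPL7 and RPL8 had medians of -0.47, -0.31 and -0.35, whereas those of RPS20 had 0.35. RPL12 and RPL13 overlapped between the lines and were among the members with the widest spread within lines. With the WT libraries alone, 5 members were higher and 7 lower, and without the HCT116 libraries numbered 3, 26 members were called. The share of all genes called is not set beside these counts. Of the other lists, 18 of 59 biogenesis factors were higher in HAP1 and 6 lower, of 78 mitochondrial ribosomal protein genes 32 and 14, of 22 translation factors 5 and 8, of 15 chaperones and importers 7 and 0, of 9 export genes 5 and 3, and of 11 snoRNA host genes 2 and 2.

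The paralogs outside the rule differed more. RPL22L1 was at 134 to 190.1 FPKM in unedited HAP1 and 407 to 533 in unedited HCT116 (-1.69 ± 0.07, adjusted p = 1.80e-15), so that the ratio of RPL22 to RPL22L1 was 2.04 ± 0.211 (SD, n = 8) and 0.565 ± 0.0800 (SD, n = 11). RPL39L, a paralog of RPL39 best known from the testis, was at 32.5 to 71.6 in unedited HAP1 and at 0 to 0.484 in unedited HCT116.

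The differences of mutated clones from WT HAP1 and from unedited HCT116 were compared by the difference of the clone effects. Mutation and the origin of each clone from 1 cell cannot be told apart in it. No member passed (1.8% of all genes did), and 10 had an unadjusted p under 0.05, as had 14.1% of all genes. Without the HCT116 libraries numbered 3, RPL35 passed with -0.54 (adjusted p = 0.00227), beside 6.67% of all genes. RPL14 passed with the block, with TPM and without 4 single libraries (adjusted p between 0.0321 and 0.0478). The log2 difference was above 0 for 73 members, with a median of 0.18, against 47.6% and -0.01 over all tested genes. For RPL22 it was 0.31 ± 0.12 (SE, adjusted p = 0.18), so a difference between the lines was not shown, nor without those libraries (0.21, adjusted p = 0.347). RPL22L1 passed, with -0.81 ± 0.18 (adjusted p = 0.00718) and without them with -0.80 (adjusted p = 0.00941). Its HCT116 difference alone was -0.12 ± 0.10.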

How the data were processed

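Bulk RNA was sequenced from 32 HAP1 and 15 HCT116 libraries. The authors aligned reads with STAR to GRCh38, quantified genes with RSEM and deposited FPKM, with no further normalization between libraries. Groups were taken from the sample labels. FPKM hides the fragment number, and a few abundant transcripts can lower all other values.

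The members and gene lists were chosen with earlier results of these data known. Values were used as log2(FPKM + 1), which understates changes of low genes. Only genes whose FPKM averaged 1 or more in the fitted libraries entered a test. The test was limma 3.58.1 (R 4.3.3; lmFit, eBayes with a trend), two-sided, with Benjamini-Hochberg adjustment over every gene tested and calls at an adjusted p under 0.05. Each clone and EV were fitted with WT only. Exact permutation tests over libraries were computed for single genes and are not reported, since groups without overlap fix their p and libraries of several clones are not exchangeable. Positions came from GENCODE 44, which matched 98.1% of the rows, and starts from RefSeq. The fit was tested on simulated data: with 4 against 4 libraries it recovered 55 of 100 genes changed by 1 on the log2 scale and 7 of 100 changed by 0.5. For the mean of the clones it recovered 89 and 56. Python 3.11.15 with pandas 2.3.3, numpy 2.4.6, scipy 1.17.1 and matplotlib 3.10.9 was used.

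Named members were the called ones of each comparison (at most 10 by size), the 5 with the largest difference in the mean of the clones, the 5 highest and 5 lowest, those near *NUP58* or on 6p, the one with the widest spread, and RPL5, RPL11, RPL22, RPS4X, RPS6, RPSA, RPLP0, RPLP1 and RPLP2. Some items that this rule would name are not reported here. Numbers in the titles were taken to pair libraries with WT where the deviations of all 4 same-numbered pairs correlated above 0.1. This held for C1 to C4 and EV. In C5 and in C6, 2 of the 4 pairs passed, and in the HCT116 clone, set against unedited libraries of its number, 1 did. Pairs of unlike number were not compared. Alternatives were a pseudocount of 0.1, no filter, TPM, median ratios, a replicate block, EV as control, other sets of HCT116 libraries, and leaving out each library.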

Additional observations from a re-analysis of the deposited data

Results flagged for a closer look

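Libraries far from the other 3 of their line were looked for in 85 sets of 4 libraries, where chance flags about 1 in 20. The share of FPKM in ribosomal protein genes reached 26.5% in C4 number 2, against 23.0% to 23.3% in the other 3. RPL12 had a single high library in C1 (2503 FPKM) and in C3 (2680), both numbered 2, RPL5 in C3 (1636, number 2), and RPS3A in C6 (2042). RPL36A had a single low library in WT (3451). Each was measured once and its cause was not tested.

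Effects differed between groups for 2 genes. The difference of the clone effect between HAP1 and HCT116 was -0.81 (log2) for RPL22L1, by the interaction term. RPL21 was higher than the WT mean in all 4 C5 libraries and lower in all 4 C6 libraries. C5 and C6 differed by 1.29 on the log2 scale, and this difference was not tested.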

How the results depend on the processing

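No called difference of a named gene changed sign in any of the 921 combinations of gene and alternative, and 820 kept their side of the threshold. The differences entered because they were called in these same libraries, and many alternatives left out only 1 library. A change of sign was therefore unlikely beforehand. The replicate block gave 2 called members in C4, beside 2.43% of all genes, and 18 in the mean of the clones, beside 12.6%. It gave 37 in C5 and 1 in the difference between lines, and moved no other count by over 1.5 times. The remaining counts here are given without the share of all genes called and do not show a change particular to members. In C5 and in C6 only 2 of the 4 same-numbered pairs with WT correlated above 0.1. The block with median ratios, chosen after seeing the data, gave 22 for the mean of the clones. Without a filter, C5 had 5 and the mean of the clones 3. With EV in place of WT, C5 had 18, C6 7 and the mean of the clones 4. Leaving out all libraries numbered 1, 3 or 4, chosen after seeing the data, gave 2, 1 and 1 for the mean. Leaving out single libraries gave 6 to 13 in C5, 4 to 5 in C6, 1 to 7 in the mean, 25 to 30 between the unedited lines, 0 to 1 for the difference between lines and 0 to 0 in C1 to C4, EV and the HCT116 clone. C5 fell to 6 without WT or C5 number 1, 3 or 4. The single call in the difference between lines was RPL14 (without C2 number 2, HCT116 clone number 3, the control titled EV1 number 4 or EV2 number 4, with TPM and with the block), but RPL35 without the HCT116 libraries numbered 3, also 1. The HCT116 clone had 1 without those libraries and 2 when the block was added. WT alone gave 12 between unedited lines. Beyond the fewer libraries in some of these, the cause was not tested. Depth cannot be read from FPKM.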
